A study of Oryza sativa with 2 samples.

Results

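Lipoxygenases add oxygen to polyunsaturated fatty acids, and allene oxide synthase, a cytochrome P450 of the CYP74 family, turns one kind of the resulting hydroperoxide into the precursor of jasmonates. Jasmonates are lipid hormones of wounding and defence in rice and other plants. Their active form brings JAZ repressors to the receptor COI1 for destruction, which frees the transcription factors that JAZ proteins hold back. Lipoxygenases also feed other oxylipin pathways, so a lipoxygenase transcript alone does not name the product.

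The probes of 3 genes are described: the lipoxygenases LOX9 (LOC4345994, also named CM-LOX2) and LOX5 (LOC4333823), and the allene oxide synthase AOS1 (LOC4334233, also named CYP74A1 and PRECOCIOUS). They were found by symbol or synonym, with or without the prefix Os, and each gene had 1 probe, so the members are 3 of 15798 genes with a probe and 3 of 22574 probes. The genes were chosen with their ratios already known, as lipoxygenase and allene oxide synthase genes that were high in irradiated seedlings, so their own ratios are given as a description.

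Whole rice (Oryza sativa) seedlings, grown for 7 days in a growth chamber on MS medium, were irradiated with carbon ion beams for 2 h 35 min, and healthy seedlings of the same age were the control. Neither cultivar, dose nor the time from exposure to harvest is given in the sources used here. RNA of both groups was hybridised together on 2 two-colour Agilent arrays, with irradiated RNA in Cy5 on the first array and in Cy3 on the swapped array. Both arrays carry the same replicate number, so they are a dye swap of 1 pair of extracts, there is 1 replicate per group, and no difference here has a replicate check or a test.

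The values are log2 ratios of irradiated over control, after the trend of the ratio with spot intensity was removed from each array. The direction is likely and not certain. It rests on reading the deposited ratios as Cy5 over Cy3 on both arrays, which neither labels nor values settle. In the 2 brightest deciles of the probes the turned arrays correlated at r = 0.53 across 4515 probes, but over all probes r was -0.25. In decile 8, which holds LOX9, r was -0.27 and the rank correlation 0.13. Genes were assigned through a numbering of the spots that the sources do not state and that was worked out from the data: with it, 545 pairs of probes of the same gene, all above the median intensity, correlated at 0.42 in their mean ratio, against 0.01 over 561 pairs with the numbers as listed. Of the tissue itself, 6 probes named for the photosynthetic apparatus lay between percentiles 83.4 and 99.9 of intensity, so photosynthetic transcripts gave bright spots. In whole seedlings a change in RNA per cell and a change in the number of cells of a type cannot be told apart.

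LOX9, the lipoxygenase with the highest ratio, had deposited log10 ratios of 1.27 on the first array and -0.30 after the dye swap. As whole-number spot intensities these ratios are 1331 in Cy5 to 71 in Cy3 on the first array, and 355 in Cy5 to 709 in Cy3 on the swapped array. Under this reading the irradiated RNA gave the brighter signal on both arrays, whichever dye carried it. After normalization the log2 ratio was 3.60 with irradiated RNA in Cy5 and 2.43 with it in Cy3, and the mean of both arrays was 3.02 or 8.09-fold.

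LOX5 had deposited log10 ratios of 1.07 and 0.022, which are 2855 to 243 on the first array and 2275 to 2162 on the swapped array, Cy5 first. Its normalized log2 ratios were 2.44 and 1.89, with a mean of 2.16 or 4.48-fold. On the swapped array its channels were nearly equal as deposited, and its ratio there comes from the distance to spots of like intensity, which were brighter in Cy5.

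AOS1, which acts after the lipoxygenases in jasmonate synthesis, had deposited log10 ratios of 0.78 and 0.12. The whole-number terms were 91 to 15 on the first array, with a common factor of 14 lost by reduction according to the estimate used, and 1638 to 1243 on the swapped array. On the swapped array the control channel was thus the brighter one as deposited. The normalized log2 ratios were 1.66 and 1.47, with a mean of 1.57 or 2.96-fold.

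**Figure D1:**
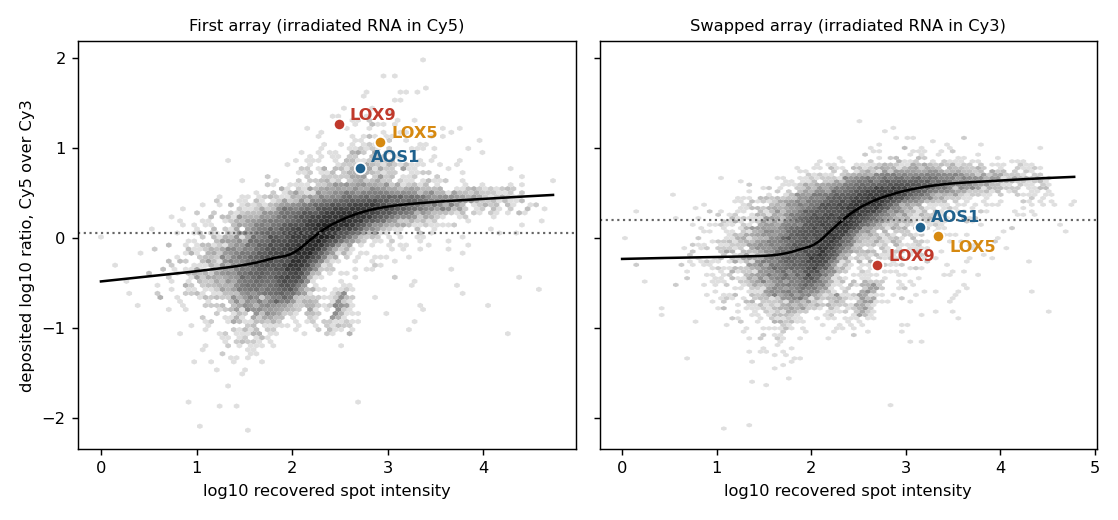
Deposited log10 ratio of Cy5 over Cy3 against recovered spot intensity for all 22574 probes on each array, with darker hexagons holding more probes; the solid line is the fitted trend and the dotted line the array median. LOX9, LOX5 and AOS1 lie above the trend on the first array and below it on the swapped array, while AOS1 and LOX5 lie only slightly below the median of the swapped array, which is 0.20.

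The fitted trend at the intensity of each probe shows how much of the ratio was taken as dye. For LOX5 the trend was 0.34 log10 units before and 0.59 after the swap. For AOS1 it was 0.28 and 0.56, and for LOX9 0.19 and 0.43. On every array the trend lay above the array median of 0.051 or 0.20, so centring on the median gives each probe a larger ratio on the first array and a smaller one after the swap.

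With median centring LOX9 stood at 4.06 and 1.67 and remained at least 2-fold higher on both arrays. LOX5 stood at 3.39 and 0.60, and AOS1 at 2.43 and 0.27, so that neither reached 2-fold on the swapped array. The means of the arrays moved less, to 2.86 for LOX9, 1.99 for LOX5 and 1.35 for AOS1, since a dye effect common to both arrays cancels in them. The call on both arrays for LOX5 and AOS1 therefore rests on the intensity trend, and that for LOX9 does not.

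All 3 members passed 2-fold upward on both arrays, a rule that 1.86% of all 22574 probes met, and 0.292% met it in the lower direction. Among the 2412 probes whose gene has a name the share was 2.69%, and among probes above the median intensity it was 3.27%. The members were chosen from this same contrast, so the count says nothing further. Counted from the highest mean ratio, or from the lowest if Cy3 were the numerator, LOX9 stood at rank 42 of all probes and 10 of the named probes, LOX5 at 126 and 23, and AOS1 at 284 and 42.

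The part of the ratio that follows the dye, the difference between the arrays divided by 2, measures how far the arrays differ. It was 0.59 for LOX9, 0.28 for LOX5 and 0.10 for AOS1 on the log2 scale. The AOS1 value and its intensity decile rest on the restored common factor of 14. Without that factor the arrays stood at 3.21 and 1.45 for AOS1. Over probes of the same intensity decile the robust SD of this part of the ratio was 0.30 for LOX9 and 0.20 for LOX5 and AOS1. This spread covers dye and array error of 1 pair of extracts and not the variation between seedlings. The members were chosen for high ratios, so a mean above this spread says nothing further. For LOX9 and LOX5 the part that follows the dye was itself larger than this spread, and for AOS1 it was smaller.

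**Figure D2:**
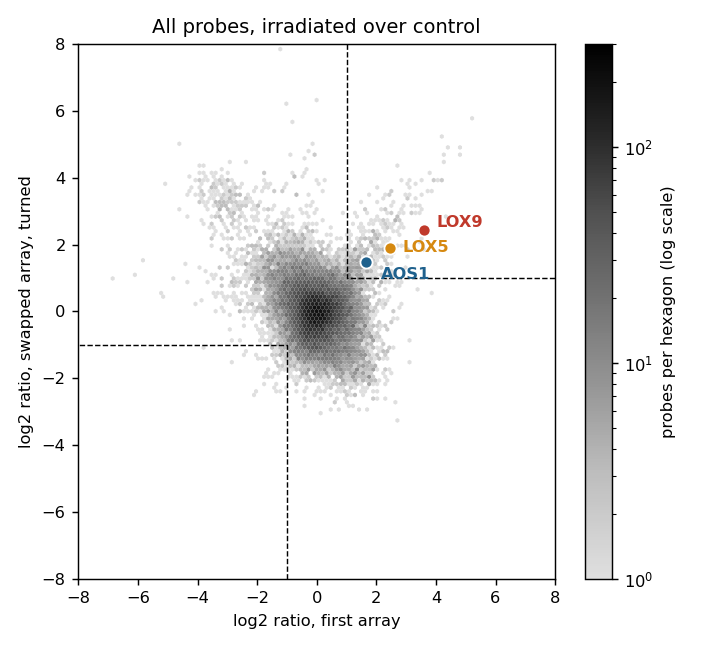
Log2 ratio of irradiated over control on the first array against that on the swapped array for all 22574 probes, with dashed lines at 2-fold in either direction. The 3 members lie inside the upper right corner, from AOS1 at 1.66 and 1.47 to LOX9 at 3.60 and 2.43.

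The spots around each member on the array grid did not share its ratio. Of the 24 spots within 2 steps of each member, 0 were at least 2-fold higher or lower on both arrays. Of all probes 1.86% passed upward and 0.292% downward, so a count of 0 is near those shares and says nothing further. The median mean ratio of these spots was -0.04 around LOX9, and it was below 0.01 in size around LOX5 and AOS1. The highest single spot among them had a mean of 0.91, near LOX5.

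The other named lipoxygenases did not have such ratios. LOX2 (LOC4331824), with a probe at percentile 61.1 of intensity, stood at 0.24 and 0.22 on the arrays. LOX3 (LOC4333818), also named r9-LOX1 for the fatty acid position it oxidises, stood at 0.64 and 0.04, but its probe was among the dimmest at percentile 3.12. LOX1.1 (LOC4334049) stood at -2.28 and 0.99 from a probe at percentile 21.8, so its arrays point opposite ways and give no direction.

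The other named CYP74 genes lay within 2-fold on both arrays. AOS2 (LOC4332121), the other gene that carries the plain name AOS, stood at 0.45 and 0.28 from a probe at percentile 63.0 and was the nearest to the threshold of those that did not reach it. AOS3 (LOC4328742) stood at 0.14 and -0.53, and AOS4 (LOC4328743) at -0.69 and 0.19, and for both the arrays differ in sign. Over these 6 other probes the median of the mean ratios was 0.02, against -0.0038 over all probes, and 0 of them were at least 2-fold higher or lower on both arrays. Of all probes 1.86% passed upward and 0.292% downward, so 0 of 6 is near those shares and does not set these probes apart from other genes. AOS1 was the member closest to the threshold from above, with 1.47 on the swapped array. Whether LOX9, LOX5 and AOS1 differ from their relatives could not be tested with 1 replicate.

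Depth of signal differed between these probes. The 3 members lay at percentiles 75.4, 94.3 and 90.1 of intensity for LOX9, LOX5 and AOS1, that of AOS1 with its lost common factor restored. Of the 6 other probes 4 were below the median intensity, where ratios are the least certain. The part of this in the low ratios of the others was not tested.

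**Figure D3:**
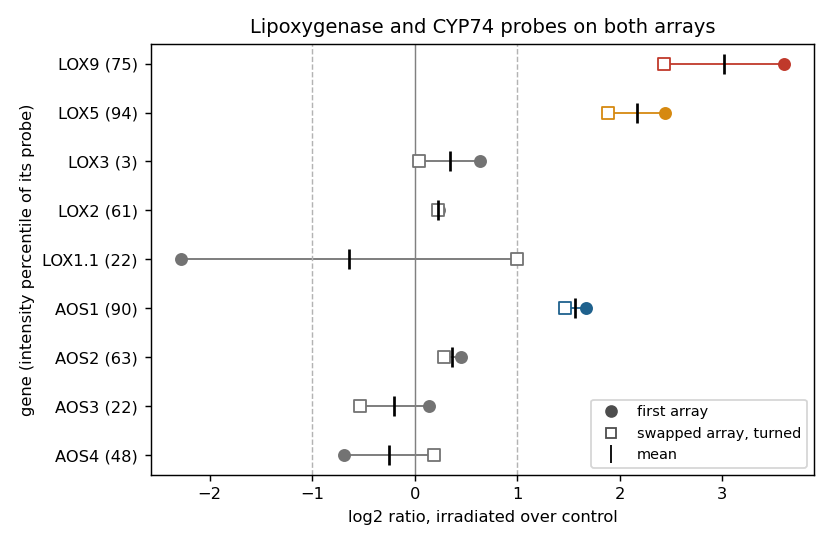
Log2 ratio of irradiated over control for the 5 lipoxygenase and 4 CYP74 probes on the first array (filled circles) and the swapped array (open squares), with a bar at the mean and the intensity percentile in brackets. LOX9, LOX5 and AOS1 lie beyond 2-fold (dashed line) on both arrays, whereas LOX1.1 spans from -2.28 to 0.99.

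LOX9 and LOX5 lie near other lipoxygenase genes in the RefSeq gene order. The gene before LOX9 is LOX8, also named CM-LOX1, and LOX4 lies 2 places before LOX5. LOX8 and LOX4 were not analysed here, since no probe bore their gene numbers. Among the 5 protein-coding genes on each side of the members, 21 genes had 24 probes, of which 0 passed 2-fold upward and 1 downward on both arrays. Their median mean ratio was 0.02. The closest measured neighbours of LOX9 were BGLU27 at 0.53, a beta-glucosidase gene from a dim probe, LOC4345992 at 0.56, also dim, and the beta-glucosidase gene BGLU28, whose 2 bright probes stood at 0.01 and -0.32. The 1 lower probe was that of LOC4333827, near LOX5. Of all probes 1.86% passed upward and 0.292% downward, so 0 of 24 upward is near the share over all probes. The upward count therefore does not set the neighbours apart from other genes. The downward count is 1 probe, too few to set against its share.

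The rest of the jasmonate pathway was followed in lists matched by symbol or synonym. Of all probes 1.86% passed 2-fold upward on both arrays and 0.292% downward, so a count of 0 in lists this short is near those shares. Fatty acid supply came first. Of its 10 probes 0 were at least 2-fold higher or lower on both arrays, and the median of the mean ratios was 0.09. The highest was the phospholipase D gene PLD2 at 0.46 from a dim probe, and the lowest the secretory phospholipase gene PLA2-III at -0.54 from a bright one. The arrays of PLD2 stood at -0.73 and 1.64, so they give no direction. The 3 probes of PLA3 and the 1 probe of DAD1 match by spelling only, as these rice genes are known for leaf timing and for cell death, and the median without them was 0.18.

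Later synthesis and conjugation had 9 probes of 9 genes, with a median of 0.46 and 0 probes past 2-fold on both arrays in either direction. Most of these are OPR genes matched by name, so the median is mainly of that family. The highest mean was that of OsOPR4 (LOC4340486), named as a 12-oxophytodienoate reductase, with 2.25 and 0.20 on the arrays from a probe at percentile 2.67. OsOPR7 (LOC4345762), the reductase of this family known to act in rice jasmonate synthesis, stood at 0.72 and 0.45 from a bright probe. OsOPR5 (LOC4340485), also bright, stood at 0.57 and 0.35. Allene oxide cyclase (LOC4333201), which acts directly after allene oxide synthase, stood at -0.19 and 1.17 from a probe at percentile 27.4. JAR1 (LOC4339756), which joins jasmonic acid to isoleucine, stood at -0.0043 and -0.06. The lowest was OsOPR12 with a mean of -0.77 from a dim probe.

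Downstream of synthesis, the 3 probes of perception and transcription genes were all below the median intensity, and 0 passed 2-fold on both arrays. Each of them had opposite signs on the arrays, with 1.24 and -2.51 for COI1B, 0.20 and -1.32 for COI2 and -0.54 and 0.57 for JAMYB, so they give no direction. Their median was 0.20 on the first array, -1.32 after the swap and -0.56 for the mean, or -0.03 with median centring. Of the 17 JAZ and TIFY probes of 15 genes, 3 passed 2-fold upward on both arrays, against the 1.86% of all probes, and 0 were lower, with a median of 0.50. These were JAZ11 with 2.02 and 2.76, JAZ12 with 2.20 and 1.90, and JAZ10 with 1.91 and 2.06. The lowest was TIFY2a, also named GATA17, at a mean of -0.47, but its arrays stood at 1.22 and -2.17 and give no direction. The list takes in TIFY genes that bear no JAZ name, so its median is not of JAZ repressors alone. The breakdown list held 6 probes of ILL genes, of a family of hormone conjugate hydrolases, from -0.35 for ILL1 to 0.10 for ILL3, with a median of -0.09 and 0 past 2-fold on both arrays. The arrays of ILL3 stood at -1.09 and 1.30, so they give no direction.

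**Figure D4:**
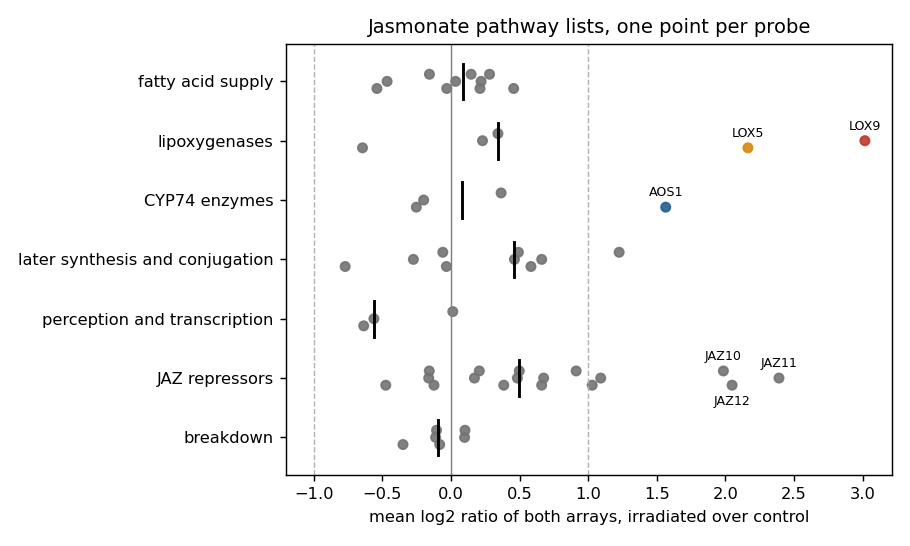
Mean log2 ratio of both arrays for each probe of the 7 jasmonate lists, with a black bar at the list median and dashed lines at 2-fold. Named points are probes at least 2-fold higher on both arrays: LOX9, LOX5, AOS1, JAZ11, JAZ12 and JAZ10.

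Over all 7 lists 54 probes of 49 genes were measured, of which 26 were below the median intensity. Besides the 3 members, 3 listed probes passed 2-fold upward on both arrays, all of them JAZ probes, and 0 passed downward. The shares of all probes were 1.86% upward and 0.292% downward. With the members included, the lipoxygenase list had a median of 0.34 over 5 probes and the CYP74 list one of 0.08 over 4 probes. Lists of this size have medians that a single probe can move.

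Likeness of pattern was measured as the distance between pairs of log2 ratios over 2 arrays, among 1393 probes of named genes above the median intensity. Nearest to LOX5 was JAZ12 at a distance of 0.25, followed by RSH3, OC-VIII, the polyubiquitin gene UBQ3 and the transcription factor gene WRKY76 at 0.39. Nearest to AOS1 were EREBP-1 at 0.11, NAC074, the calmodulin-like gene CML16, the sugar transporter gene MST3 and NAC071 at 0.28. LOX9 had no near neighbour among these named probes. The nearest of them was CLPD1 at 0.85, then BHLH148, the heat shock factor gene HSF23, NAC067 and BZIP50 at 1.02. Outside the named probes, that of LOC4341871 lay closer to LOX9, with 3.33 and 2.89 on the arrays. A dim second probe of NAC071 had a mean of 0.04 and one of BHLH148 had -0.08, so the probes of those genes disagree. With 2 arrays of the same extracts, such likeness says only that the ratios were of similar size.

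**Figure D5:**
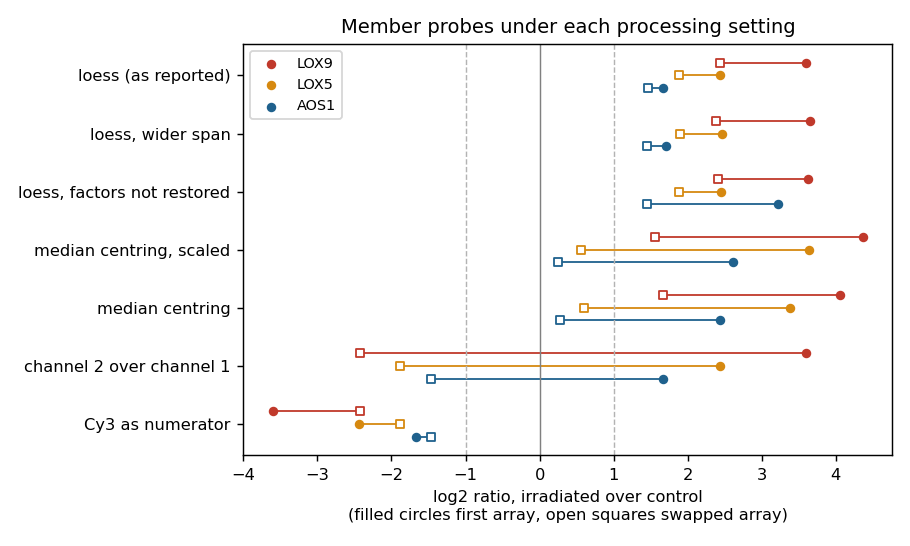
Log2 ratios of LOX9, LOX5 and AOS1 on the first array (filled circles) and the swapped array (open squares) under each way of processing, with dashed lines at 2-fold. LOX9 stays beyond 2-fold on both arrays in the 5 settings that turn the swapped array and take Cy5 as numerator, while LOX5 and AOS1 fall short on the swapped array with median centring, at 0.60 and 0.27.

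The ratio of AOS1 depended on the estimate of intensity. When the lost common factor of 14 was not put back, its spot on the first array counted as dim, the ratio there was 3.21 and its mean 2.33, or 5.04-fold. LOX9 and LOX5 had lost no factor by this estimate, and their means stayed at 3.02 and 2.16. If both columns were instead channel 2 over channel 1, nothing would be turned. The arrays would then point opposite ways for all 3 members, with means of 0.59 for LOX9, 0.28 for LOX5 and 0.10 for AOS1. If Cy3 were the numerator, each ratio would change sign and the members would be lower in irradiated seedlings by the same folds.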

How the data were processed

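Per the labels' protocols, TRIZOL-extracted RNA was amplified and labelled with a kit from Agilent. GenePix image software and, for normalization, GeneSpring version 4 are named in the series' design text. Each deposited value is the log10 ratio of the channels of a spot, 22575 per array, and 1 row with a missing value was left out. Background handling and numerator are not stated. Column medians of 0.051 and 0.20 show no centring. Each value was read as the simplest ratio of whole numbers within its 9 decimals, a common factor of up to 59 was restored with the help of the other array, and loess of the ratio on this rough intensity (span 0.3, 3 robustness iterations, statsmodels 0.14.6) was subtracted. The remainder was taken to log2 and turned on the swapped array. A simulated dye swap was also run, with equal spot intensities on both arrays. It does not check the restored factor of a spot that differs in intensity between the arrays, as AOS1 did by the estimate.

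Probes were named from the platform annotation through RefSeq gene numbers (17839 of 17839 matched, assembly ASM3414082v1, names and gene order only), with the annotation's numbers turned to a grid of 105 by 215. Another 21 probes with several genes and 4715 unlisted ones are unnamed. The members, lists and alternatives were chosen with earlier results of these data known. Named genes are all lipoxygenase and CYP74 probes, the extremes and 2-fold probes of the other lists, and the 5 nearest patterns; other list members, gene neighbours and grid neighbours were added after their values were seen. The number of arrays limits the precision. Gene descriptions, sequences and coordinates were not used here.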

Additional observations from a re-analysis of the deposited data

How the results depend on the processing

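Mean log2 ratios of LOX9, LOX5 and AOS1 moved by less than the SD of the arrays with a loess span of 0.6, as did those of LOX9 and LOX5 with median centring, scaled or not, and without restored factors, and that of AOS1 with scaled centring. This SD of the 2 arrays was 0.83 for LOX9, 0.39 for LOX5 and 0.14 for AOS1. It is thus a looser measure for LOX9 and LOX5, which went to 2.86 and 1.99 with median centring. For AOS1 it rests on the restored factor. AOS1 moved to 1.35 with median centring and to 2.33 without restored factors. Read as channel 2 over channel 1, the means were 0.59, 0.28 and 0.10 for LOX9, LOX5 and AOS1, and with Cy3 as numerator -3.02, -2.16 and -1.57. With probe numbers as listed the rows were other probes, at 1.46, -0.39 and 0.084. Of the 3 members called higher, 1 was left with median centring, scaled or not, 0 as channel 2 over channel 1 and 0 with Cy3 as numerator; 2 passed 3-fold.

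The 419 higher and 66 lower probes became 257 and 27 with median centring, 251 and 28 with scaling, 1942 and 1818 by the first array, 2344 and 1946 by the swapped one, 929 and 484 at 1.5-fold, 187 and 7 at 3-fold, 716 and 298 by the mean, 66 and 419 with Cy3 as numerator, and 432 and 792 as channel 2 over channel 1. The share higher was 86.4% with loess, 90.5% with median centring, 70.6% by the mean and 51.6% and 54.6% on each array alone, but 35.3% as channel 2 over channel 1 and 13.6% with Cy3 as numerator. The 3 other listed probes called higher became 10 and 11 on each array alone, 5 at 1.5-fold, 6 by the mean and 0 with Cy3 as numerator. The 0 called lower became 5 and 3 on each array alone, 3 as channel 2 over channel 1 and 3 with Cy3 as numerator.

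List medians under the other settings were as follows. Some shifts were smaller than the SD of the array medians of the list. These were every shift of breakdown, the JAZ and TIFY shifts except with Cy3, and the perception shifts with median centring and on each array alone. So was the shift of fatty acid supply without spelling matches. Lipoxygenases went from 0.34 to 0.64 and 0.99 on each array alone, 2.16 above the median intensity and -0.34 with Cy3 as numerator. CYP74 went from 0.08 to 0.13 with median centring, 0.12 with scaling, 0.29 and 0.24 on each array alone, 0.97 above the median intensity and -0.083 with Cy3. Above the median intensity the lipoxygenase median is the LOX5 value itself, and that of CYP74 lies between AOS1 and AOS2. Both thus rest on members chosen for high ratios. Without the members the list medians over all intensities were 0.23 for lipoxygenases and -0.20 for CYP74. Fatty acid supply went from 0.09 to -0.056 with median centring, -0.15 on the swapped array, -0.16 above the median intensity and -0.091 with Cy3, and to 0.18 without spelling matches, which was chosen after seeing the data. Later synthesis went from 0.46 to -0.0043 on the first array, 0.028 as channel 2 over channel 1, 0.22 above the median intensity and -0.46 with Cy3. Perception went from -0.56 to 0.20 and -1.32 on each array alone, -0.03 with median centring, 0.76 as channel 2 over channel 1 and 0.56 with Cy3, and had no probe there. The JAZ and TIFY list went from 0.50 to 0.91 and 0.12 on each array alone and -0.50 with Cy3, and breakdown from -0.09 to -0.40 and 0.05 on each array alone. The cause of these shifts was not tested beyond what each setting does by construction. Lists by symbol alone were the lists used, since no gene descriptions were at hand, so that alternative was not run. No paired analysis was possible because there is 1 replicate per group. Of the 54 listed probes 26 were below the median intensity, where ratios are least certain.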

Other observations

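The gene 4 places after LOX5 in the RefSeq gene order, LOC4333827, had the lowest ratio among the measured neighbours of the members, with -2.10 and -2.45 on the arrays and a mean of -2.27, from a probe at percentile 86.6 of intensity. It was singled out after its value was seen. Between it and LOX5, LOC4333826 stood at -0.04, LOC4333825 at -0.44 and the probes of LOC4333824 at -0.05 and -0.57, while LOX5 stood at 2.16. None of those between passed 2-fold on both arrays.

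Next to AOS1, the gene 2 places further on, LOC4334235, stood at -0.81 and -1.18 on the arrays, a mean of -0.995.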
